A study of Mus musculus with 24 samples.

Results

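Butyrate and propionate were given alone and together, so the 4 groups form a factorial design in which each acid is absent or present. The comparison described here is the interaction: the difference between combination and propionate, minus the difference between butyrate and control. It asks whether butyrate was followed by another difference in transcript abundance where propionate was also given. The members are 23 of the 24 libraries of the series, with 6 control, 6 propionate, 6 butyrate and 5 combination libraries. The members were chosen by measured values: combination replicate 5 was left out for its B cell, T cell and muscle transcripts. It held 68.8 TPM of the T cell gene Cd3e and 2.52 TPM of the muscle actin gene Acta1. The other 23 libraries held at most 7.07 TPM of Cd3e and at least 5384 TPM of Acta1. The values of B cell, T cell and muscle genes are therefore given as a description only.

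The samples are mouse tissue labelled peritoneum, which the design text calls peritoneal metastasis, and the series title ties them to mannose, PD-1 blockade and ovarian cancer. Control samples had no treatment, and the other groups received propionate, butyrate, or propionate and butyrate. The labels state no dose, time point, age, strain, tumour line or PD-1 treatment, and leave unsaid whether each replicate is its own animal. The p-values thus reflect the spread among these libraries alone, and that spread may be technical. RNA abundance is given as TPM, a transcript abundance corrected for length and scaled to the same total in every library, which keeps no sequencing depth. The depth is therefore unknown, and no counting interval is given.

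Gut bacteria make propionate and butyrate, both short-chain fatty acids, from fibre. Both can enter cells through monocarboxylate carriers, bind the receptors encoded by Ffar2 and Ffar3, and inhibit zinc-dependent histone deacetylases, butyrate more potently than propionate. Because they share these routes, a factorial design can show whether their joint difference equals the sum of the single ones. Here the sum was taken on the log2(TPM + 1) scale, and the level it gives for the combination group is called the additive level. An interaction above 0 means that the combination group lay above the additive level, and one below 0 that it lay below.

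No gene passed the test of the interaction. Of 15315 genes tested with limma, 0 (0%) passed an adjusted p of 0.05. The lowest adjusted p was 0.200. With weights estimated per library, which gave some libraries far less influence than others, 10746 genes passed. A replicate block by the library number of the data columns gave 0, with a lowest adjusted p of 0.0503. With that block 7492 genes above 0 had an unadjusted p under 0.05 in limma. In the main fit, at an unadjusted p under 0.05, 3728 genes (24.3%) lay above 0 and 86 (0.562%) below. Over all tested genes the median interaction was 0.51 and 82.5% lay above 0. The position of the whole distribution depended on scaling: the median was 0.04 with median-of-ratios scaling and -0.05 after quantile normalization. Both scalings bring the libraries to a common level, so a median near 0 follows largely from the method. They therefore cannot show whether the shift of the whole distribution is real. Values below are on the deposited scale and are best read against the median of 0.51, and counts above 0 against the share of 82.5%.

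**Figure D1:**
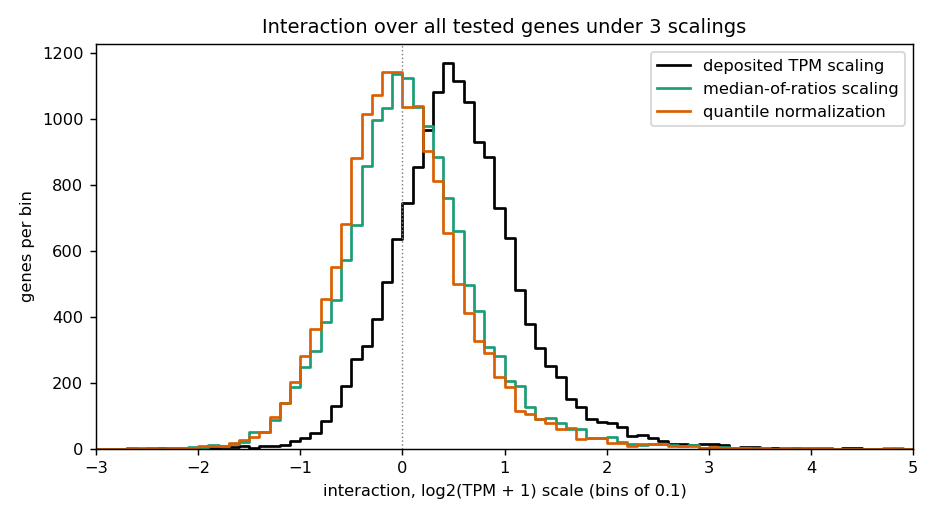
Number of tested genes (vertical axis) in bins of the interaction on the log2(TPM + 1) scale (horizontal axis) for the deposited TPM and for 2 other scalings. The deposited values centre on 0.51, and the other scalings centre near 0, largely by construction.

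Most genes had lower group means with either acid alone than in control. Means of log2(TPM + 1) were below control with both acids given singly for 11449 genes (74.8%). For 8903 of these (77.8%) the combination lay above both single-acid groups, and for 1515 (13.2%) it lay above control. Both shares are a description only, since these genes were picked for low single-acid means. The butyrate group had the lowest of the 4 means for 61.5% of genes and the control group the highest for 64.9%. Butyrate alone against control had a median log2 difference of -0.38, and combination against propionate one of 0.12. These differences share no library. Neither passed limma for any gene: 0 (0%) in each, with smallest adjusted p values of 0.0965 and 0.634. The first count rested on 1 library: butyrate alone gave 6702 genes without control replicate 3. It also gave 8877 with a block by library number and 10419 with library weights, and butyrate added to propionate gave 2626 with those weights. At an unadjusted p under 0.05, 37.8% of genes lay below 0 and 2.08% above for butyrate alone, against 0.202% below and 3.85% above for butyrate added to propionate.

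Measures of tissue make-up moved with the groups, and their part in the results was not tested. Wt1, a transcription factor gene of mesothelium and of ovarian tumours, had a median of 237 TPM in control, 11.9 with propionate, 22.6 with butyrate and 15.6 in the combination group. The range within each group was wide, from 0.65 to 368 TPM in control and from 1.07 to 336 with propionate. It was 0.37 to 166 with butyrate and 1.76 to 216 in the combination group. Transcripts of the mitochondrial genome took 16.6 ± 3.72% of TPM in control (SD, n = 6), 19.99 ± 4.46% with propionate (n = 6), 23.2 ± 2.46% with butyrate (n = 6) and 17.8 ± 2.71% with both acids (n = 5). The 50 most abundant genes took 40.6 ± 7.97, 48.9 ± 11.2, 53.3 ± 4.95 and 44.7 ± 6.77% of TPM in the same order. In bulk tissue, fewer cells of a type and less RNA per cell cannot be told apart. With Wt1 as a covariate the median interaction was 0.24, and with tissue covariates, 2 principal components computed from 8 tissue list scores (ovary, muscle, fat and others), it was 0.16.

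**Figure D2:**
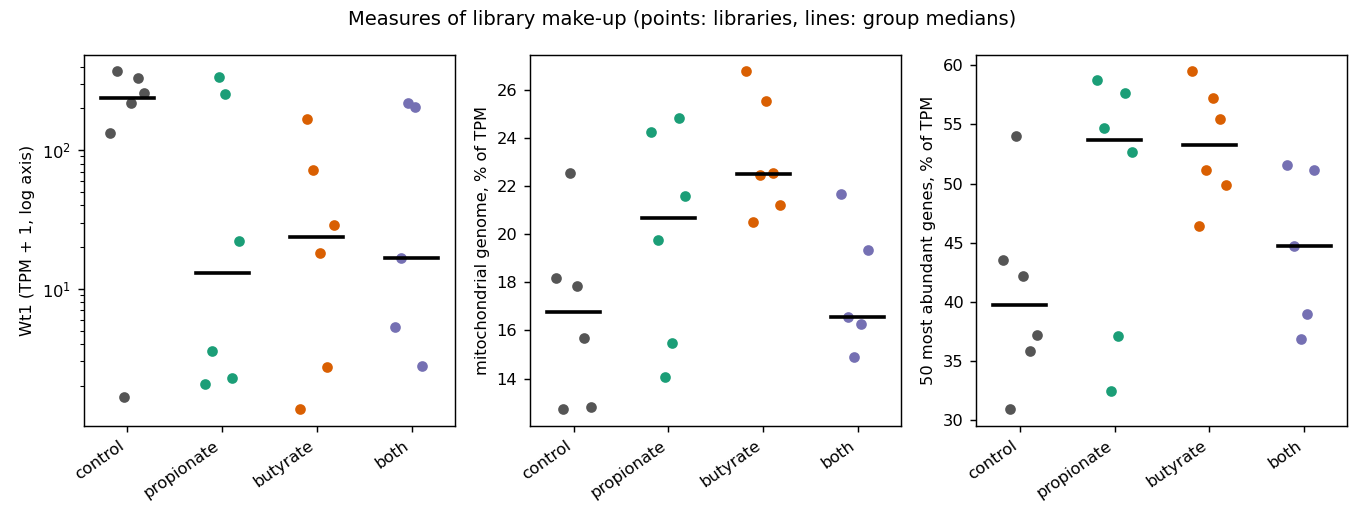
Wt1 in TPM + 1 on a log axis, the mitochondrial share of TPM and the share of the 50 most abundant genes, with 1 point per library and a line at each group median. Control holds 5 of its 6 libraries at high Wt1, and the butyrate group has the highest median mitochondrial share, with ranges that overlap.

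Saa3 had the largest difference of the genes named for a small p. It encodes a serum amyloid A protein, an acute-phase protein made outside the liver by macrophages and epithelia. Control libraries held 21.9 to 189 TPM with a median of 76.7, propionate libraries 7.70 to 43.1 with a median of 15.2, and butyrate libraries 2.08 to 59.2 with a median of 30.2. With both acids, libraries held 59.5, 62.4, 72.6, 76.3 and 93.0 TPM. All 5 lay above every propionate and every butyrate library, and within the control range. The lowest, at 59.5 TPM, was barely above the highest butyrate library, at 59.2. Every combination library lay above every propionate library for 0.196% of all tested genes, and above every butyrate library for 0.842%. The share above both single-acid groups at once was not counted, and Saa3 was named for a small p in these data. The additive level was 4.22 TPM. The interaction was 3.80 ± 0.85 (SE, 95% interval 2.05 to 5.56, limma adjusted p = 0.200), from -1.81 ± 0.58 for butyrate alone and 1.99 ± 0.61 for butyrate added to propionate. It was 3.25 with median-of-ratios scaling, 3.07 with Wt1 as a covariate and 3.24 to 4.15 when each library was left out in turn.

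Cebpb encodes a transcription factor of acute-phase and myeloid genes and had the smallest unadjusted p of all genes, 0.000176. It was at 14.0 to 20.8 TPM in control with a median of 19.0, at 10.8 to 16.9 with propionate with a median of 13.8, and at 11.1 to 14.2 with butyrate with a median of 11.7. The combination libraries were at 14.7, 15.8, 16.9, 17.3 and 19.9 TPM, all above every butyrate library, which held for 0.842% of all tested genes. The additive level was 9.01 TPM. The interaction was 0.83 ± 0.18 (SE, 95% interval 0.45 to 1.22, limma adjusted p = 0.200), but 0.27 with median-of-ratios scaling and 0.17 after quantile normalization.

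Jun, which encodes a subunit of the AP-1 transcription factor, gave the same order of groups. Control libraries held 31.6 to 70.6 TPM with a median of 44.0, propionate 20.7 to 34.1 with a median of 27.9, and butyrate 20.7 to 39.2 with a median of 23.1. Combination levels were 27.1, 28.0, 28.7, 31.9 and 43.4 TPM. They overlapped every other group and lay above the additive level of 14.9 TPM. The interaction was 1.03 ± 0.27 (SE, 95% interval 0.46 to 1.59), but 0.45 with median-of-ratios scaling and 0.47 after quantile normalization.

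The promoters of Saa3 and Jun are shown because these genes, with Cebpb, encode an acute-phase protein and regulators of acute-phase and early response genes. They were picked with their values known, and lay above the additive level, as did 82.5% of all genes. Whether they share regulation was not tested. Sequences are the 250 bases before the RefSeq start, from build GRCm38.p6, both on the minus strand. Saa3 is at chr7:46715677-46715926 and Jun at chr4:95052223-95052472. Capitals mark the matches found on either strand to the letters TTGCNNAA (C/EBP), TGANTCA (AP-1) and TGACNTCA (a cyclic AMP response element, also bound by AP-1 dimers).
Saa3: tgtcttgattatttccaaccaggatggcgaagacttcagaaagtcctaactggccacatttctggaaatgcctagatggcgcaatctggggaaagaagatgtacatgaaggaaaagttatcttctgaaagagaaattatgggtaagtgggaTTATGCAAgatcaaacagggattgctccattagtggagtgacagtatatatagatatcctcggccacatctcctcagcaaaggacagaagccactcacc
Jun: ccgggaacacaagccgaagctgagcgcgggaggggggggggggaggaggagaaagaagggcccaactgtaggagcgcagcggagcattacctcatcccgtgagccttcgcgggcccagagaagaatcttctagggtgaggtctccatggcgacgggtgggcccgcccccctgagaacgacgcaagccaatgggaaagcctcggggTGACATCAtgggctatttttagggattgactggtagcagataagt

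Saa3 holds a C/EBP match 99 to 92 bases before the start, on the reverse strand of the printed sequence, and Jun a response element match 45 to 38 bases before it. The Cebpb window of the same length held no match to the 3 motifs. Of 32851 RefSeq windows of this length, 9.56% hold the C/EBP letters, 7.49% the response element and 6.75% the AP-1 letters. A match describes the sequence only.

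**Figure D3:**
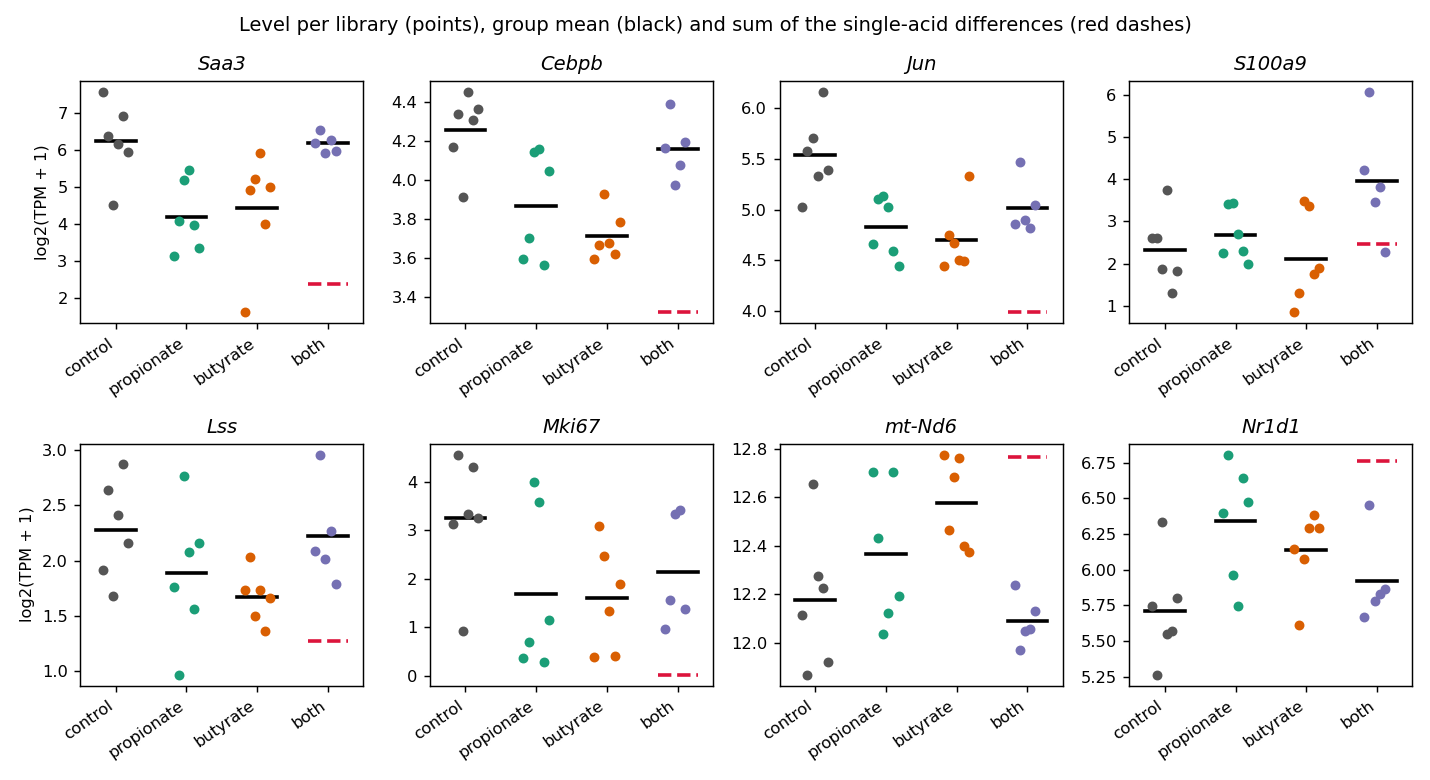
Level of 8 genes as log2(TPM + 1) in each library (points), with the group mean (black line) and the additive level of the combination group (red dashes). The combination means of Saa3, Cebpb, Jun, S100a9, Lss and Mki67 lie above the dashes, and those of mt-Nd6 and Nr1d1 below.

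Immediate early genes, which answer stimuli within minutes to hours, lay above 0 as a group. All 18 tested of 19 had an interaction above 0, against 82.5% of all genes. The list median was 1.13 against 0.51 over all genes, and 16 lay above the median of all genes. Of the 18, 10 had an unadjusted p under 0.05, against 24.3% of all genes above 0, and 0 passed adjustment. Klf4, a zinc-finger regulator, was at 1.07 ± 0.35 (SE), the AP-1 gene Jund at 1.81 ± 0.64 and its partner gene Fos at 2.04 ± 0.76. Fos rested in part on 1 control library at 95.2 TPM, since the other 5 held 8.25 to 16.2. The list median was 0.68 with median-of-ratios scaling, 0.56 after quantile normalization and 0.75 with Wt1 as a covariate.

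Inflammatory cytokine and NF-kB genes gave a median of 1.18, and all 13 tested of 16 lay above 0, against 82.5% of all genes. Of the 13, 9 had an unadjusted p under 0.05, against 24.3% of all genes. The median was 0.90 with median-of-ratios scaling, 0.57 with Wt1 and 0.37 with tissue covariates. The monocyte chemokine genes Ccl2 and Ccl7 were at 2.05 ± 0.71 and 2.16 ± 0.75 (SE). Ccl7 was at 2.99 to 19.1 TPM in control, 1.83 to 14.8 with propionate and 1.42 to 14.5 with butyrate, with medians of 9.98, 6.22 and 9.49. In the combination group, levels were 13.9, 14.5, 15.6, 25.4 and 42.3 TPM, 3 of them above every library of the single acids. Butyrate added to propionate gave 1.72 ± 0.55 for Ccl7, and butyrate alone -0.44 ± 0.52. Il1b, the gene of interleukin-1 beta, was at 1.77 ± 0.68, and the NF-kB subunit gene Nfkb1 at 1.02 ± 0.43.

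Macrophage genes lay above the additive level. All 12 of the macrophage list were above 0, against 82.5% of all genes, with a median of 1.22. Of the 12, 6 had an unadjusted p under 0.05, against 24.3% of all genes. The median was 0.64 with median-of-ratios scaling (10 of 12 above 0), 0.56 with Wt1 and 0.32 with tissue covariates. The lysosomal gene Cd68 was at 1.39 ± 0.52 (SE), the Fc receptor gene Fcgr1 at 1.70 ± 0.66, the growth factor receptor gene Csf1r at 1.17 ± 0.49 and Adgre1, which encodes F4/80, at 1.27 ± 0.53. For Cd68, butyrate alone gave -0.55 ± 0.36 and butyrate added to propionate 0.84 ± 0.37. Of 11 tested genes of the peritoneal macrophage list, 10 were above 0, against 82.5% of all genes, with a median of 0.94. This list holds Saa3 and also Alox15, a lipoxygenase gene of resident peritoneal macrophages.

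Alox15 was low in all groups and was named for a small p in these same data. It was at 1.46 to 2.83 TPM in control, 1.30 to 2.28 with propionate and 0.93 to 2.37 with butyrate, with medians of 1.76, 1.93 and 1.73. The combination libraries held 3.15, 3.23, 3.31, 4.18 and 5.63 TPM, all above every library of the other groups. Every combination library lay above every propionate library for 0.196% of all tested genes, and above every butyrate library for 0.842%. The share above all other groups at once was not counted. The interaction was 0.91 ± 0.24 (SE, 95% interval 0.41 to 1.42, limma adjusted p = 0.200), and butyrate added to propionate gave 0.77 ± 0.17. Marco, a scavenger receptor gene, was at 2.24 ± 0.77 and the coagulation factor gene F10 at 0.94 ± 0.34. Combination replicate 6 held 0 TPM of Marco, against 3.42 to 5.80 in the other 4.

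Neutrophil genes lay near their control level with butyrate alone. Of 8 tested of 12, 7 lay above 0, against 82.5% of all genes, with a median of 1.06. Butyrate alone had a median of -0.04 and butyrate added to propionate one of 0.92. The alarmin gene S100a9 was at 1.46 to 12.4 TPM in control, 2.98 to 9.74 with propionate and 0.81 to 10.2 with butyrate, with medians of 3.85, 4.71 and 2.56. With both acids, libraries held 3.82, 9.92, 13.1, 17.5 and 66.0 TPM, so the highest stood far above the rest and the lowest within every group. Its interaction was 1.49 ± 0.80 (SE, 95% interval -0.17 to 3.15, limma adjusted p = 0.210), and 0.97 without combination replicate 2. The lipocalin gene Lcn2 was at 3.04 ± 1.18, the colony-stimulating factor receptor gene Csf3r at 1.13 ± 0.45 and Retnlg at 0.99 ± 0.44. Il1r2, whose product binds interleukin-1 without signalling, was at 0.65 ± 0.31. The list median was 0.69 with median-of-ratios scaling, 0.55 after quantile normalization and 0.79 with either set of covariates.

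Alternatively activated macrophage genes were near the median of all genes, at 0.40, and -0.19 with median-of-ratios scaling. Of 9 tested, 7 lay above 0, against 82.5% of all genes. Arg1, the arginase gene, was at 1.84 ± 0.91 (SE) and the lectin gene Mgl2 at 0.65 ± 0.30. Complement genes had a median of 0.89, with 12 of 13 above 0, against 82.5% of all genes. The C1q chain genes C1qa, C1qb and C1qc were at 1.44 ± 0.58, 1.53 ± 0.60 and 1.40 ± 0.56, and C2 at 1.16 ± 0.49. Dendritic cell genes and those of mast cells and eosinophils had medians of 0.69 and 0.90. Of these, 9 of 10 and 8 of 8 tested lay above 0, against the same 82.5%.

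Antigen presentation and interferon genes mostly had an interaction above 0, as did 82.5% of all tested genes. All 14 class I genes, all 10 class II genes and all 16 tested interferon gamma response genes were above 0, with medians of 1.27, 1.59 and 1.49. Of the type I interferon response, 18 of 19 tested were above 0, with a median of 0.94. An unadjusted p under 0.05 was reached by 10 class I, 0 class II, 6 interferon gamma and 10 type I genes, against 24.3% of all genes, and 0 passed adjustment in limma. With tissue covariates the medians were 0.41, 0.20, 0.41 and 0.40.

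Psmb10, which encodes a catalytic subunit of the immunoproteasome, was at 21.2 to 41.1 TPM in control, 15.9 to 49.0 with propionate and 18.7 to 26.8 with butyrate, with medians of 36.2, 26.9 and 23.9. Combination levels were 28.4, 32.2, 53.03, 53.4 and 57.0 TPM, all above every butyrate library, which held for 0.842% of all tested genes. Of these levels, 3 lay above every library of the other groups. The interaction of Psmb10 was 1.12 ± 0.37 (SE, 95% interval 0.35 to 1.90). The immunoproteasome gene Psmb8 was at 1.69 ± 0.72, the peptide transporter gene Tap2 at 1.23 ± 0.52 and the peptide-trimming gene Erap1 at 0.92 ± 0.38. In class II, H2-DMa and H2-DMb1, which load peptides, were at 1.46 ± 0.74 and 1.76 ± 0.93, the invariant chain gene Cd74 at 1.70 ± 0.91 and the class II transactivator gene Ciita at 1.60 ± 0.87. Irf1, a transcription factor gene of the interferon gamma response, was at 1.53 ± 0.60, and the GTPase genes Irgm1, Irgm2 and Tgtp1 at 1.42 ± 0.60, 1.60 ± 0.64 and 1.45 ± 0.58. Of the type I response, the antiviral genes Oas1a and Oas3 were at 1.30 ± 0.44 and 1.23 ± 0.45, Stat2 at 1.10 ± 0.43 and Isg15 at 1.64 ± 0.64.

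Lymphoid genes are given without a test, since they chose the members. The T cell list had a median interaction of 0.72 over 14 tested of 16, and the B cell list 0.78 over 7 tested of 12. With combination replicate 5 kept, these were 1.51 and 1.61. T cell scores, the mean log2(TPM + 1) of the tested members, were 1.43 ± 0.43 in control (SD, n = 6), 1.40 ± 0.71 with propionate (n = 6), 1.03 ± 0.34 with butyrate (n = 6), 1.86 ± 0.76 in the combination group (n = 5) and 6.04 in the library left out. The signalling genes Zap70 and Lck were at 0.77 ± 0.30 and 1.15 ± 0.54 (SE), and the receptor gene Trac at 1.78 ± 0.83. Plasma cell genes had a median of 1.72 over 8 tested, and -0.05 with Wt1 as a covariate.

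Cytotoxic lymphocyte genes had a median of 0.92, with 6 of 6 tested above 0, against 82.5% of all genes, and 7 of 13 below the filter. They are lymphoid genes too and are given without a test. The median was 0.35 with Wt1 and 0.21 with tissue covariates. Gzmb, which encodes granzyme B, was at 0.05 to 0.79 TPM in control, 0.19 to 1.37 with propionate and 0.08 to 0.47 with butyrate, with medians of 0.23, 0.61 and 0.27. In the combination group, levels were 0.09, 1.22, 1.59, 2.29 and 3.82 TPM, so 1 lay among the lowest of all groups and 3 above every other library. Its interaction was 0.63 ± 0.38 (SE), that of Gzma 0.81 ± 0.47 and that of Nkg7 1.14 ± 0.73. Without combination replicate 2, Gzmb was at 0.40 and Gzma at 0.52. Cd8a, which encodes a coreceptor of cytotoxic T cells, was at 0.64 ± 0.42 without combination replicate 5 and 1.498 with it. It was at 0.36 with combination replicate 4 also left out. Cd274, which encodes the PD-1 ligand PD-L1, was at 2.59 to 6.39 TPM in control, 2.79 to 9.38 with propionate and 2.82 to 4.26 with butyrate, with medians of 3.71, 4.33 and 3.44. The combination libraries held 3.12, 6.93, 9.44, 11.1 and 19.3 TPM, 4 of them above every control and every butyrate library. The interaction of Cd274 was 0.89 ± 0.44 (95% interval -0.02 to 1.79, limma adjusted p = 0.200). The checkpoint and regulatory T cell list had a median of 0.83 over 8 tested of 12.

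**Figure D4:**
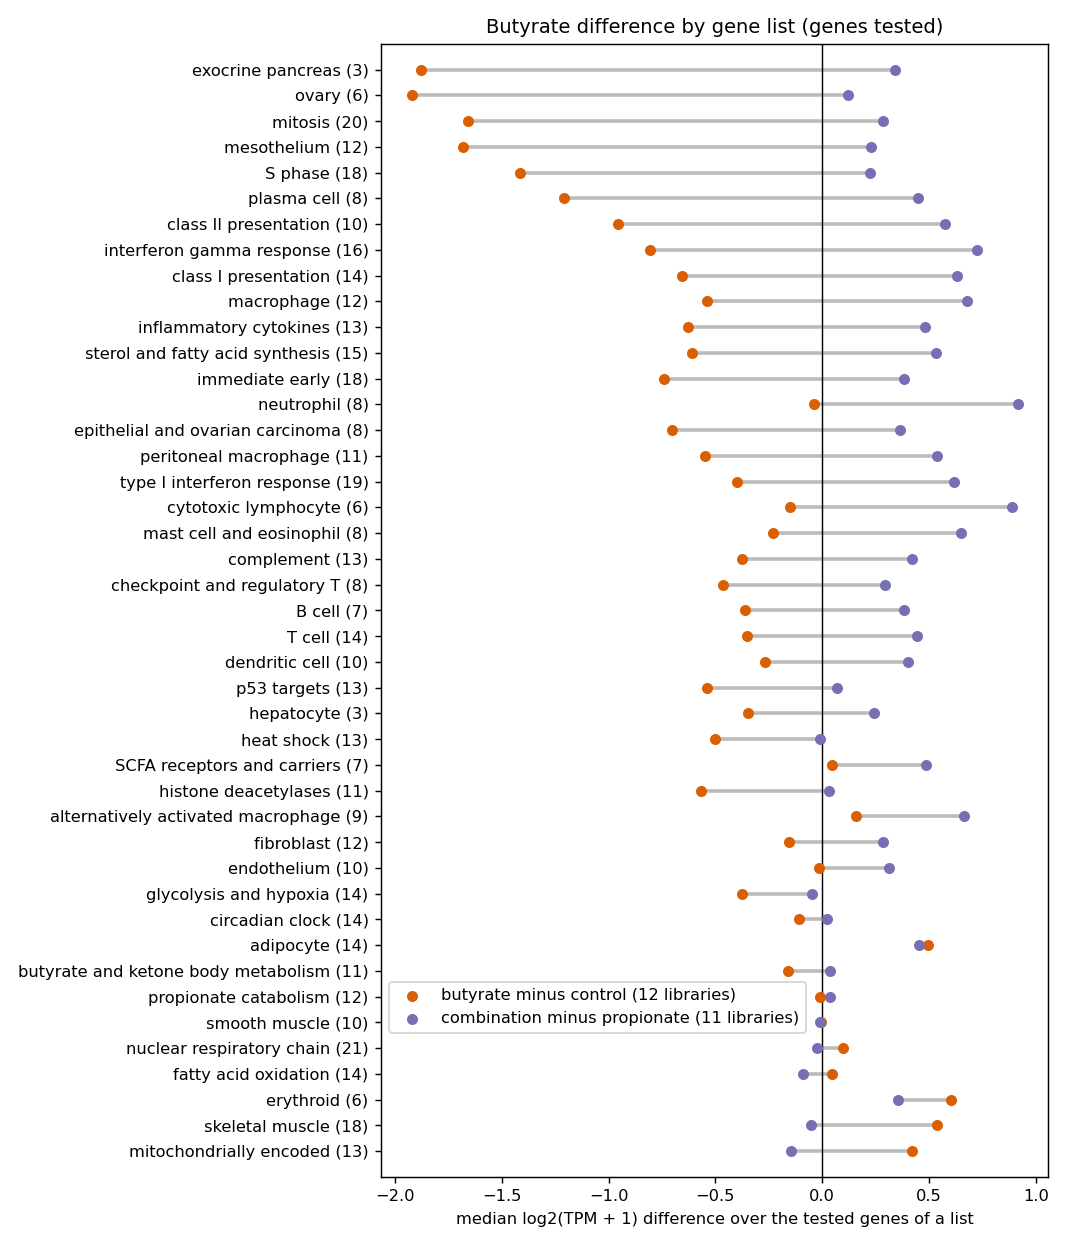
Median log2(TPM + 1) difference over the tested genes of each list with at least 3 tested, for butyrate minus control (orange) and combination minus propionate (purple), ordered by median interaction. Most lists lie left of 0 for butyrate alone and right of 0 for butyrate added to propionate, while muscle and mitochondrially encoded genes lie the other way.

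Proliferation genes had among the largest list medians. All 20 mitosis genes and all 18 S phase genes were above 0, with medians of 1.96 and 1.79, from -1.66 and -1.41 for butyrate alone and 0.28 and 0.22 for butyrate added to propionate. Over all tested genes 82.5% lay above 0. An unadjusted p under 0.05 was reached by 2 mitosis and 5 S phase genes, against 24.3% of all genes, and 0 passed adjustment. Mki67, a marker of cycling cells, was at 0.88 to 22.5 TPM in control, 0.22 to 15.0 with propionate and 0.30 to 7.47 with butyrate, with medians of 8.74, 0.91 and 2.10. With both acids, libraries held 0.94, 1.60, 1.93, 9.04 and 9.68 TPM, a low and a high set within the range of control and propionate. Its interaction was 2.11 ± 1.06 (SE, 95% interval -0.09 to 4.30, limma adjusted p = 0.202). Aurka, a mitotic kinase gene, was at 0.99 ± 0.41, Cdc20 at 2.34 ± 1.08, the cyclin gene Ccnb2 at 2.20 ± 1.08 and the kinetochore motor gene Cenpe at 1.20 ± 0.59. The replication genes Mcm3, Mcm5 and Cdc45 were at 2.09 ± 0.92, 2.14 ± 0.97 and 0.94 ± 0.45, and the ribonucleotide reductase gene Rrm2 at 2.09 ± 0.99. The additive level of Mki67 was 0.0139 TPM, below every library. Since TPM cannot fall below 0, the interaction of Mki67 could not lie far below 0, and its sign says little. The same floor limits the mitosis list, whose mean scores were 3.31 in control, 1.89 with propionate and 1.76 with butyrate. Its count above 0 therefore says little as well.

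Genes of mesothelium, ovary and exocrine pancreas had values of similar size. Their median interactions were 1.82 (12 of 12 above 0), 2.04 (6 of 6 tested of 12) and 2.36 (3 of 3 tested of 12), and that of epithelial and ovarian carcinoma genes was 1.05 (8 of 8 tested of 13). Over all tested genes 82.5% lay above 0. An unadjusted p under 0.05 was reached by 0, 0, 1 and 2 genes in the same order, against 24.3% of all genes. The floor at 0 TPM limits the ovary and pancreas lists too. Mean scores in control, propionate and butyrate were 3.38, 1.91 and 1.70 for ovary, and 3.26, 1.69 and 1.45 for pancreas. Their interactions could hardly lie far below 0, so their counts above 0 say little. Without the filter on low values, ovary was at 0.53 (8 of 10 above 0) and pancreas at 0.07 (6 of 9). Wt1 itself was at 3.17 ± 2.38 (SE, 95% interval -1.77 to 8.11), the keratin gene Krt18 at 3.42 ± 1.99, the mucin gene Muc16 at 2.14 ± 1.27 and the ovarian hormone gene Amh at 1.85 ± 1.01. Among carcinoma genes the claudin gene Cldn3 was at 1.00 ± 0.43 and Elf3 at 1.09 ± 0.50. The mesothelium score was 4.91 ± 1.77 in control (SD, n = 6), 3.47 ± 1.85 with propionate (n = 6), 3.29 ± 1.21 with butyrate (n = 6) and 3.77 ± 1.76 with both (n = 5), and the groups overlapped. With Wt1 as a covariate the mitosis and S phase medians were 0.60 and 0.63, and with tissue covariates 0.24 and 0.26. The pancreas median was 0.67 with Wt1 and 0.18 with tissue covariates. Those of mesothelium and ovary were 0.26 and 0.18 with Wt1, and -0.12 and -0.28 with tissue covariates, which are built in part from the ovary and pancreas lists.

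**Figure D5:**
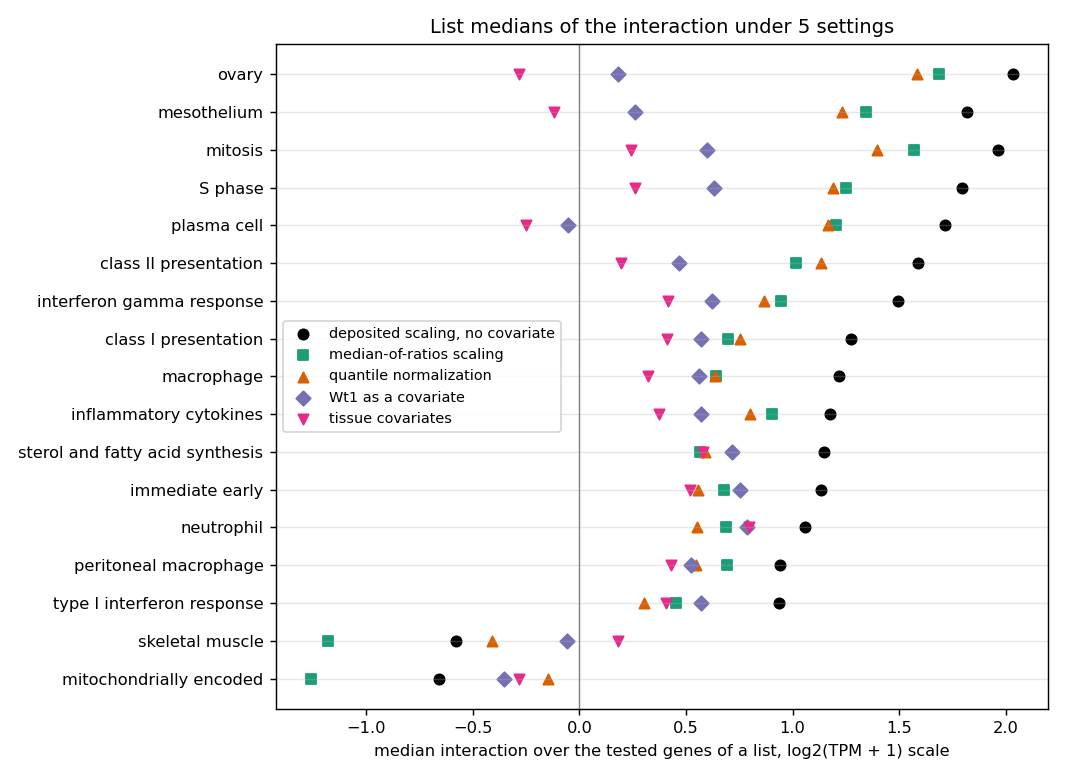
Median interaction over the tested genes of 17 lists on the log2(TPM + 1) scale, for the deposited scaling without covariates, 2 other scalings and 2 fits with covariates of tissue make-up. Values of ovary, mesothelium, mitosis, S phase and plasma cell genes move most with the covariates, while those of neutrophil, sterol synthesis and immediate early genes stay at 0.52 or above in all 5.

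Sterol and fatty acid synthesis genes all lay above the median of all genes. The 15 of 15 had a median of 1.15, 6 at an unadjusted p under 0.05 against 24.3% of all genes, and the median was 0.56 with median-of-ratios scaling, 0.59 after quantile normalization, 0.72 with Wt1 and 0.58 with tissue covariates. Lss, which encodes lanosterol synthase, was at 2.20 to 6.31 TPM in control, 0.96 to 5.79 with propionate and 1.58 to 3.09 with butyrate, with medians of 3.90, 2.81 and 2.24. Combination levels were 2.45, 3.03, 3.24, 3.81 and 6.76 TPM and overlapped all groups. Its interaction was 0.95 ± 0.37 (SE, 95% interval 0.17 to 1.72). The sterol sensor gene Insig1 was at 1.13 ± 0.50, and 0.73 without combination replicate 2.

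Other metabolic lists lay at or under the median of all genes. Glycolysis and hypoxia genes were split, with 9 of 14 above 0 and a median of 0.27, and -0.25 with median-of-ratios scaling. Of these, Eno1 was at 1.53 ± 0.54 (SE), Pfkp at 1.29 ± 0.45, the glucose carrier gene Slc2a1 at 1.06 ± 0.40 and Ndrg1 at 1.41 ± 0.61. Fatty acid oxidation genes had a median of -0.16, with 3 of 14 above 0, but 0.06 with Wt1 (10 of 14) and 0.16 with tissue covariates (13 of 14). Cpt1a, the carnitine transferase gene of fatty acid entry into mitochondria, was at 1.66 ± 0.87, and at 0.56 and 0.25 with these covariates. Adipocyte genes had a median of 0.11 that was -0.48 with median-of-ratios scaling. Their median butyrate differences were 0.49 without and 0.45 with propionate. Adipoq, the adiponectin gene, was at -0.12 ± 0.65, and Lpl, which encodes lipoprotein lipase, at 0.33 ± 0.27. Without combination replicate 2, Adipoq was at -0.52 and Lpl at 0.071.

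Mitochondrially encoded genes lay below the additive level. All 13 were below 0, with a median of -0.66, and 10 had an unadjusted p under 0.05, against 0.562% of all genes below 0. The median was -1.26 with median-of-ratios scaling, -0.15 after quantile normalization (where 3 of the 13 lay above 0), -0.36 with Wt1 and -0.28 with tissue covariates. Quantile normalization gives a rank the same value in every library, so genes that keep their rank move to 0. The gene mt-Atp8 was at -7.1e-15 after it. Values after quantile normalization therefore say little about these abundant transcripts. These transcripts share a genome and reads with nuclear copies, so they are not independent, and the values of single genes are uncertain where reads could be shared.

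The complex I gene mt-Nd6 was at 3742 to 6457 TPM in control, 4202 to 6677 with propionate and 5311 to 7010 with butyrate, with medians of 4610, 5103 and 6115. In the combination group, levels were 4014, 4241, 4267, 4488 and 4832 TPM, all below every butyrate library and within the control range. The share of all genes with every combination library below every butyrate library was not counted. The additive level was 6958 TPM. The interaction was -0.67 ± 0.21 (SE, 95% interval -1.11 to -0.24, limma adjusted p = 0.200). The ATP synthase genes mt-Atp8 and mt-Atp6 were at -0.71 ± 0.25 and -0.78 ± 0.31, and the complex I genes mt-Nd3 and mt-Nd1 at -1.02 ± 0.39 and -0.67 ± 0.26. After quantile normalization mt-Nd6 was at -0.11, with the same limit. Every butyrate library lay above every control library for mt-Atp8, which held for 0.0718% of all tested genes. Nuclear genes of the respiratory chain had a median of -0.14 with 3 of 21 tested above 0, but 0.10 with Wt1 (15 of 21) and 0.22 with tissue covariates (17 of 21). They included Cox7b at -0.52 ± 0.26, the cytochrome c gene Cycs at -0.56 ± 0.31 and Ndufa4 at -0.38 ± 0.23.

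Skeletal muscle genes, which also chose the members, are given as a description. All 18 lay below 0, with a median of -0.58, but 3 lay above 0 after quantile normalization, which can narrow differences of abundant genes. The median was -2.35 with combination replicate 5 kept and 0.18 with tissue covariates. Ttn, the titin gene, was at -1.67 ± 0.84 (SE), the nebulin gene Neb at -1.06 ± 0.65 and the calcium release channel gene Ryr1 at -0.93 ± 0.64, and -0.61 without control replicate 2. Muscle scores were 10.6 ± 0.79 in control (SD, n = 6), 10.9 ± 0.97 with propionate (n = 6), 11.2 ± 0.27 with butyrate (n = 6) and 10.8 ± 0.54 with both (n = 5). Mylk4, a myosin light chain kinase gene of striated muscle, had the largest difference of the 10 genes named below 0, at -1.52 ± 0.58.

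The other genes named below 0 gave higher means with either acid than in control, and combination means between those of control and the single acids. Prkg1, a cyclic GMP-dependent kinase gene of contractile cells, was at 2.62 to 12.5 TPM in control, 3.98 to 14.3 with propionate and 7.05 to 12.5 with butyrate, with medians of 5.27, 11.005 and 11.6. The combination libraries held 4.19, 5.84, 5.89, 6.57 and 6.84 TPM, all below every butyrate library. The share of all genes for which this held was not counted, and Prkg1 was named for a small p in these data. The interaction of Prkg1 was -1.33 ± 0.42 (SE, 95% interval -2.21 to -0.45), and -0.90 with Wt1 as a covariate. Dkk2, which encodes a modulator of Wnt signalling, was at -0.86 ± 0.29, the Polycomb gene Cbx7 at -0.85 ± 0.32, Klhdc1 at -1.05 ± 0.40 and the ubiquitin ligase gene Hectd2 at -0.61 ± 0.23.

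Circadian clock genes lay on either side of 0. The repressor genes Nr1d1 and Nr1d2 were at -0.84 ± 0.28 and -0.70 ± 0.31 (SE), while Nfil3, a gene they repress, and Per1 were at 1.14 ± 0.34 and 0.93 ± 0.43. Nr1d1 was at 37.5 to 79.6 TPM in control, 52.6 to 111 with propionate and 48.0 to 82.6 with butyrate, with medians of 49.6, 85.6 and 73.7. With both acids, libraries held 49.97, 53.9, 55.8, 57.3 and 86.6 TPM, 4 of them near the control median. Nfil3 had medians of 33.6 TPM in control, 20.6 with propionate and 19.2 with butyrate, and the combination libraries held 16.7, 18.7, 24.6, 25.5 and 29.5 TPM. Over the list, 8 of 14 tested lay above 0, with a median of 0.18, which was -0.36 with median-of-ratios scaling and -0.47 after quantile normalization. The labels give no time of day for the samples.

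The other genes named above 0 were of varied function. Pxdc1 was at 1.58 ± 0.37 (SE), the carrier gene Slc25a25 at 1.33 ± 0.35, the cytoskeletal adaptor gene Pdlim1 at 0.95 ± 0.24 and the endothelial and lymphocyte transcription factor gene Klf2 at 1.01 ± 0.24. The RNA helicase gene Ddx49 was at 0.75 ± 0.18, the cell cycle repressor gene E2f4 at 0.64 ± 0.16 and the minor spliceosome gene Snrnp25 at 0.61 ± 0.15. Pdlim1 was at 85.0 to 115 TPM in control, 46.4 to 87.4 with propionate, 49.8 to 81.3 with butyrate and 61.9, 65.0, 79.4, 83.0 and 97.1 in the combination libraries. Every control library lay above every butyrate library for Pdlim1, Pxdc1, Ddx49 and Snrnp25, which held for 1.8% of all genes. With median-of-ratios scaling Ddx49, E2f4 and Snrnp25 were at 0.20, 0.08 and 0.05, and after quantile normalization E2f4 and Snrnp25 turned to -0.010 and -0.055.

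Genes that sense and carry the acids gave small differences. Of 7 tested of 9, 6 lay above 0, against 82.5% of all genes. The median was 0.56, close to that of all genes, and 0.05 with either other scaling. Slc16a1, a monocarboxylate carrier gene, was at 17.0 to 26.9 TPM in control, 9.45 to 20.9 with propionate and 10.8 to 15.7 with butyrate, with medians of 21.6, 15.3 and 11.5. Combination levels were 7.59, 15.7, 15.7, 16.2 and 21.5 TPM, a range that covers all 12 single-acid libraries. Its interaction was 0.75 ± 0.30 (SE, 95% interval 0.12 to 1.37, limma adjusted p = 0.200), from -0.78 ± 0.21 for butyrate alone and -0.03 ± 0.22 for butyrate added to propionate. Bsg, which encodes the chaperone of that carrier, was at 0.40 ± 0.14, but at -0.20 with median-of-ratios scaling, and the carrier gene Slc16a7 at 0.69 ± 0.37.

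The receptor genes were near the limit of detection. Ffar2 was at 0.37 to 1.24 TPM in control, 0.37 to 1.12 with propionate and 0.24 to 1.39 with butyrate, with medians of 0.64, 0.64 and 0.96. In the combination group, levels were 0.65, 0.81, 1.03, 3.04 and 6.25 TPM, 2 of them above every other library. Its interaction was 0.71 ± 0.40 (SE, limma adjusted p = 0.216), and 0.37 without combination replicate 2. Ffar3 was at 0.07 TPM or less in all 23 libraries and was not tested. Hcar2, whose product senses ketone bodies and butyrate, was at 0.26 ± 0.32, and at -0.058 without combination replicate 2, which held 6.18 TPM against 1.26 to 1.52 in the other 4.

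Histone deacetylase genes had 10 of 11 above 0, against 82.5% of all genes, and a median of 0.56, but -0.02 with median-of-ratios scaling. Hdac1 was at 1.30 ± 0.55 (SE), Hdac5 at 0.52 ± 0.20, Hdac7 at 0.91 ± 0.36 and Hdac11 at 1.07 ± 0.43. Cdkn1a, the p21 gene that deacetylase inhibitors induce in many cultured cells, was at 38.5 to 51.6 TPM in control, 25.2 to 50.9 with propionate and 23.4 to 48.3 with butyrate, with medians of 45.0, 33.8 and 32.1. The combination libraries held 28.4, 30.6, 36.2, 40.0 and 47.3 TPM and overlapped all groups. Its interaction was 0.46 ± 0.26 (limma adjusted p = 0.218), and turned to -0.12 with median-of-ratios scaling and -0.095 after quantile normalization.

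Enzymes that break down the acids lay close to additive on the deposited scale, and thus below the median of all genes. Propionate catabolism genes had 6 of 12 above 0 and a median of 0.05, and genes of butyrate and ketone body metabolism 6 of 11 tested and 0.10. Over all genes these were 82.5% and 0.51, and 2 of the 12 and 0 of the 11 lay above that median. With median-of-ratios scaling, under which the median of all genes was 0.04, the list medians were -0.53 and -0.50. Pcca, a subunit of propionyl-CoA carboxylase, was at 0.47 ± 0.20 (SE). Suclg2 and Sucla2, which encode the alternative beta subunits of succinyl-CoA synthetase, were at 0.58 ± 0.27 and -0.60 ± 0.31. The beta-oxidation genes Echs1 and Hadh were at 0.38 ± 0.16 and 0.32 ± 0.14, and the butyryl-CoA synthetase gene Acsm3 at -1.15 ± 0.59.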

How the data were processed

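RNA was measured in 24 libraries, made from polyadenylated RNA with a stranded kit, per the labels' protocols. The authors deposited TPM for 149132 transcripts, in which every column sums to 1000000. The submitters' processing notes name fastp, HISAT2, StringTie and mm39; the versions, settings and annotation behind them are not stated there. TPM was summed by gene name (56422 names), leaving out 1001 unnamed transcripts (0.174 to 0.422% of TPM in the 23 libraries used). Genes were kept where 5 or more libraries reached a TPM of 1, which left 15315, and log2(TPM + 1) was fitted with limma 3.58.1 in R 4.3.3 (means of 4 groups, intensity trend, robust moderation). P-values are two-sided, adjusted by the Benjamini-Hochberg method over all 15315 genes, with a threshold of 0.05. A self-test on simulated data preceded the fit.

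Genes were named by rule: the 10 of smallest unadjusted p above 0 and the 10 below 0 whose mean log2(TPM + 1) reached 1, passing over 1 and 6 predicted genes or pseudogenes, 13 further genes of interest, and up to 4 genes of smallest p in a described list. The members, the 44 lists and these rules were chosen with earlier results of these data known. Lists are described by counts and medians over tested genes. Alternatives were another pseudocount, filter, scaling, weighting, moderation or block, covariates, the library left out kept in, and each library left out. Promoter sequences are from RefSeq (GRCm38.p6). Counting by strand is not stated, so antisense partners may share reads. Values of some list members are not reported here.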

Additional observations from a re-analysis of the deposited data

Results flagged for a closer look

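Single libraries stood apart within their group by Dixon's criterion on log2(TPM + 1) in 23 of 516 tests (4.46%), about the 1 in 20 that chance gives, but 15 of the 23 came from 1 library, control replicate 3. Control replicate 3 was the lowest control for genes of tissue make-up, with 0.65 TPM of Wt1, 0.61 of Krt18, 0.14 of Muc16 and 0.13 of Amh. It was also lowest for the immune genes Cd74 at 328 TPM, H2-DMa at 21.5, H2-DMb1 at 15.0, Psmb8 at 23.4, Irf1 at 14.0, C2 at 15.6, Adgre1 at 18.4, Trac at 0.53 and Csf3r at 0.68, and for the replication gene Mcm5 at 1.35. It was the highest control for Dkk2, at 4.56 TPM. Without it the median interaction over all genes was 0.60.

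Combination replicate 2 was the highest of its group for Nr1d1 at 86.6 TPM, Hcar2 at 6.18 and Lpl at 809, and combination replicate 6 the lowest for Marco at 0 TPM. Butyrate replicate 6 was the highest of its group for Jun at 39.2 TPM and the lowest for Nr1d2 at 21.6. Butyrate replicate 1 was the lowest for Zap70 at 0.15 TPM, and control replicate 5 the highest for Fos at 95.2.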

How the results depend on the processing

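The count of 0 genes in the interaction held in all settings but weights estimated per library, which gave 10746 genes (9857 higher, 889 lower), 10419 for butyrate alone (1060 higher, 9359 lower) and 2626 for butyrate added to propionate (2512 higher, 114 lower). Those weights were lowest for propionate replicates 3 and 4 (0.116 and 0.167) and control replicate 3 (0.241) and highest for propionate replicate 5 (6.20). Propionate replicates 3 and 4 held 336 and 254 TPM of Wt1, against 1.07 to 21.3 in the other propionate libraries. Control replicate 3 held 0.65 TPM, against 131 to 368 in the other controls. The part of tissue make-up in the weighted counts was not tested. Butyrate alone gave 8877 genes with a replicate block by library number and 76 with tissue covariates. Butyrate added to propionate gave 4 with tissue covariates and 34 with Wt1 as a covariate. Leaving out single libraries gave 0 to 0 genes in the interaction, 0 to 6702 for butyrate alone (6702 without control replicate 3 and 1 without control replicate 1) and 0 to 0 for butyrate added to propionate. The cause was not tested. Of 129 tested genes named here, 125 passed with the weights, against 10746 of all 15315. Most of the 129 were picked for a small p in these data, so their count is a description only. The replicate block by title number gave 0 in each comparison. Neither number met the criterion for pairing, a correlation over 0.1 in every pair: of 33 same-numbered pairs by title and 24 by library number, 15 and 16 had residuals correlated over 0.1, and 3 of 23 libraries matched their own number best under each. By library number the median correlation was 0.37, against -0.05 for other pairs, and the block lowered the smallest adjusted p of the interaction to 0.0503. Whether libraries of the same number share a source was not tested. By title the medians were -0.06 and -0.03.

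The median interaction was 0.07 without a filter, 0.60 for a TPM of at least 5, 0.63 with a pseudocount of 0.1, 0.61 with combination replicate 5 kept and 0.45 to 0.63 without single libraries. The direction of these genes turned with median-of-ratios scaling: Suclg2 (-0.0078), Hspa8 (-0.014), Hcar2 (-0.055), Hdac5 (-0.064), Pcca (-0.10), Cdkn1a (-0.12), Bsg (-0.20), Echs1 (-0.21), Lpl (-0.27) and Hadh (-0.28). Quantile normalization turned E2f4 (-0.010), Lpl (-0.023), Hdac5 (-0.030), Hsf1 (-0.045), Snrnp25 (-0.055), Cdkn1a (-0.095), Echs1 (-0.11), Pcca (-0.16), Hcar2 (-0.16) and Hadh (-0.20). Wt1 was at -0.66 with tissue covariates. Adipoq turned to 0.31 with Wt1, 0.36 with tissue covariates, 0.37 with combination replicate 5, 0.14 with the library number block, 0.055 with weights, and above 0 without control replicate 6, butyrate replicate 5 or 6, or combination replicate 3 or 4, in a range of -0.52 to 0.22 when each library was left out. Hcar2 was at -0.058 without combination replicate 2.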

Other observations

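Lists not described above gave values near the median interaction of all genes or below it. Heat shock genes had 13 of 13 above 0, against 82.5% of all genes, and a median of 0.58, and -0.01 with median-of-ratios scaling. Dnajb1, a cochaperone gene, was at 1.45 ± 0.52 (SE, log2 scale), the regulator gene Hsf1 at 0.58 ± 0.22 and Hspa8 at 0.59 ± 0.22. Targets of p53 had 11 of 13 above 0, against the same 82.5%, and a median of 0.62. The apoptosis gene Bax was at 0.97 ± 0.45 and the stress gene Sesn2 at 0.85 ± 0.40.

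Endothelial and fibroblast genes had 9 of 10 and 11 of 12 above 0, against 82.5% of all genes. Their medians of 0.34 and 0.39 lay below that of all genes, and were -0.23 and -0.20 with median-of-ratios scaling. The junction gene Esam was at 1.15 ± 0.39 (SE) and the matrix gene Sparc at 1.30 ± 0.60. Smooth muscle genes had 4 of 10 above 0 with a median of -0.04, and erythroid genes 0 of 6 tested with -0.24. Hepatocyte and intestinal epithelium genes had 3 and 1 tested, with medians of 0.61 and -0.24.

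Across the 15315 genes the butyrate differences without and with propionate, which share no library, had a Pearson r of -0.23 and opposite signs for 70.2%. Genes are not independent replicates, and all points share the 4 group means.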
